A study of Mus musculus with 17 samples.

Results

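Gnl3, Gnl3l, Gnl2, Gnl1, Lsg1 and Mtg1 encode the YlqF/MTG family of GTPases, and their mRNA levels were followed here across 3 siRNA treatments and 2 RNA fractions. The 6 genes were chosen by name, as the members of that family, from 55416 gene IDs counted in each library, and all 6 had enough counts to be tested in every comparison. The cells were Rpl31-FTA E14Tg2a.4 mouse embryonic stem cells, grown in serum with leukemia inhibitory factor. In every group, controls included, the ribosomal protein Rpl31 carried a FLAG-TEV-AviTag, and a split proximity biotinylation system called ALIBi, aimed at the endoplasmic reticulum (ER), tagged ribosomes there. Biotinylated ribosomes were affinity purified and their polyA RNA was sequenced (ER ribosome-bound RNA), and an aliquot of the same lysate, taken before purification, gave the whole-cell RNA. Before that, cells were given siRNA targeting Nmd3, siRNA targeting Gnl3, or a scramble control. All came from 1 engineered cell line, so the replicates, which the labels call biological, share that line. The siRNA sequences and treatment time are not given in the sources used here.

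GTPases of this family work on ribosomal subunits while these are being built. They are unusual among GTPases in that the usual order of the guanine nucleotide-binding motifs is permuted, so that the motif that recognises the guanine base comes before the phosphate-binding loop. Gnl3, also called nucleostemin, is a nucleolar protein that is abundant in stem cells and is linked to the p53 pathway. Gnl3l is its closest vertebrate relative and is also found in the nucleolus. Gnl2 joins the precursor of the large (60S) ribosomal subunit in the nucleolus and nucleus, and its yeast counterpart must leave before the export adaptor Nmd3 can bind. Lsg1 acts at the other end of that route, in the cytoplasm, where it is needed to release Nmd3 from the exported subunit. Mtg1 works on the large subunit of the mitochondrial ribosome, and the cellular role of Gnl1 is less well described. The name nucleolar GTPases therefore fits only some of the 6 by known location.

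The coding sequences show what the family shares and how far its members have diverged. Below is the stretch of each coding sequence around the phosphate-binding loop (the G1 motif), 5′ to 3′, from the GENCODE M21 transcripts of GRCm38. Capitals mark the 8 codons that match the loop's pattern of glycine, any 4 residues, glycine, lysine, then serine or threonine.
Gnl3: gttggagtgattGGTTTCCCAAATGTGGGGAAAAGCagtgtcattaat
Gnl3l: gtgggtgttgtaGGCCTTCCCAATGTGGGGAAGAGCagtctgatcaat
Gnl2: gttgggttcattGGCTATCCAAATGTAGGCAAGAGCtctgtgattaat
Gnl1: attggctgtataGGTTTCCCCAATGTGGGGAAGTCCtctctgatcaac
Lsg1: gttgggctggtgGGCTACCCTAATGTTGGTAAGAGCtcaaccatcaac
Mtg1: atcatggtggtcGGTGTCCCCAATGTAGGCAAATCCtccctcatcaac

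Each of the 6 coding sequences held exactly 1 match to this loop and exactly 1 match to the base-recognition motif (G4, asparagine or threonine, lysine, any residue, aspartate). The G4 match lay before the loop in all 6, by 62 codons in Gnl2, 67 in Mtg1, 80 in Gnl3, 87 in Gnl3l, 142 in Gnl1 and 167 in Lsg1. The coding sequences ran to 1617 bases in Gnl3, 1734 in Gnl3l, 2187 in Gnl2, 1824 in Gnl1, 1935 in Lsg1 and 981 in Mtg1. Over the 24 bases of the loop itself, pairs of genes were identical at 15 (Lsg1 and Mtg1) to 20 bases. Gnl3 matched Gnl1 at 20 of them, Gnl3l at 19, and Gnl2, Lsg1 and Mtg1 at 18 each.

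Over their whole coding sequences the members share only short exact runs. The untranslated parts of the mRNAs were not compared, so how well reads and siRNAs can tell the members apart was not assessed. The longest run of identical bases between Gnl3 and another member was 12 (with Gnl2 and with Mtg1) and otherwise 11, and the longest between any pair was 17, in Gnl1 and Lsg1. The run shared by Gnl3 and Gnl2 lies near the end of both coding sequences, and that shared by Gnl3 and Mtg1 lies further inside each.
Gnl3 and Gnl2: AGGATGCTGACG
Gnl3 and Mtg1: GCAGATTGTCCC
Gnl1 and Lsg1: TGTGACTGCCCGGGCCT
A run of 12 or more bases in common with Gnl3 was found in 4908 of 21876 protein-coding genes (22.4%), so these runs do not set Gnl2 or Mtg1 apart from the transcriptome.

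The 17 libraries held 15.2 to 29.9 M gene counts. The labels state that the submitters left out replicate 3 of the Gnl3 siRNA and replicate 2 of the Nmd3 siRNA whole-cell libraries as outliers in their principal component analysis, and both were left out of the tests here, with their levels given beside the rest. That left 3 scramble, 2 Nmd3 siRNA and 2 Gnl3 siRNA whole-cell libraries, and 2 scramble, 3 Nmd3 siRNA and 3 Gnl3 siRNA ER ribosome-bound libraries (scramble replicates 2 and 3). All 9 embryonic stem cell markers, Pou5f1 and Nanog among them, were at 10 counts per M gene counts (CPM) or more in every library, whereas 7 fibroblast markers summed to at most 10.1 CPM, 5 primitive endoderm markers to at most 9.81 CPM and 5 neural and mesoderm markers to at most 22.4 CPM. A further 8 mRNAs of proteins made at the ER summed to 2880 to 3120 CPM in whole-cell RNA and 5590 to 6510 CPM on ER ribosomes, and mitochondrially encoded RNA made up 1.15% to 2.03% of whole-cell and 0.0204% to 0.0239% of ER ribosome-bound counts. Some libraries of the Nmd3 siRNA groups stood somewhat apart without being marked in the labels. The 2 Nmd3 whole-cell libraries used, replicates 1 and 3, lay further from each other (per-gene chi-square 9.36) than the other whole-cell pairs used within a group (2.1 to 4.09). Replicate 1 had the lowest mitochondrially encoded share of the whole-cell libraries used, 1.15%, against 1.92% in replicate 3. Nmd3 ER ribosome-bound replicate 2 lay further from its replicates 1 and 3 (9.3 and 11.0) than those lay from each other (3.27).

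After scramble siRNA, Gnl3 was the most abundant of the 6 mRNAs and Mtg1 the least. Levels between genes are compared per kb of mRNA, with the length of 1 principal transcript per gene. The order rests on that choice: the Gnl3 transcript used is 1.947 kb, while all annotated Gnl3 exons together span 6.101 kb. In whole-cell RNA Gnl3 (ENSMUSG00000042354.8) was at 136.6 ± 4.5 CPM per kb (SD, n = 3). Gnl2 (ENSMUSG00000028869.14) was at 62.9 ± 1.84 CPM per kb, Gnl1 (ENSMUSG00000024429.10) at 40.1 ± 1.12 and Lsg1 (ENSMUSG00000022538.21) at 40.0 ± 2.05. Gnl3l (ENSMUSG00000025266.12) was at 30.0 ± 1.34 CPM per kb and Mtg1 (ENSMUSG00000039018.16) at 18.9 ± 2.58. Gnl1 and Lsg1 did not differ beyond their spread, and the other neighbours in that order were further apart than their SDs.

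The order differed on ER ribosomes. Gnl3 again came first there, at 89.2 ± 2.66 CPM per kb (SD, n = 2), but Gnl1 came next at 46.1 ± 1.2 followed by Lsg1 at 41.4 ± 0.285. Next were Gnl2 at 33.5 ± 1.6 CPM per kb, then Mtg1 at 21.9 ± 1.11 and Gnl3l at 20.2 ± 0.928. The last pair did not differ beyond their spread. The 3 nucleolar members each had a lower level per kb on ER ribosomes than in whole-cell RNA, and Gnl1, Lsg1 and Mtg1 did not.

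**Figure D1:**
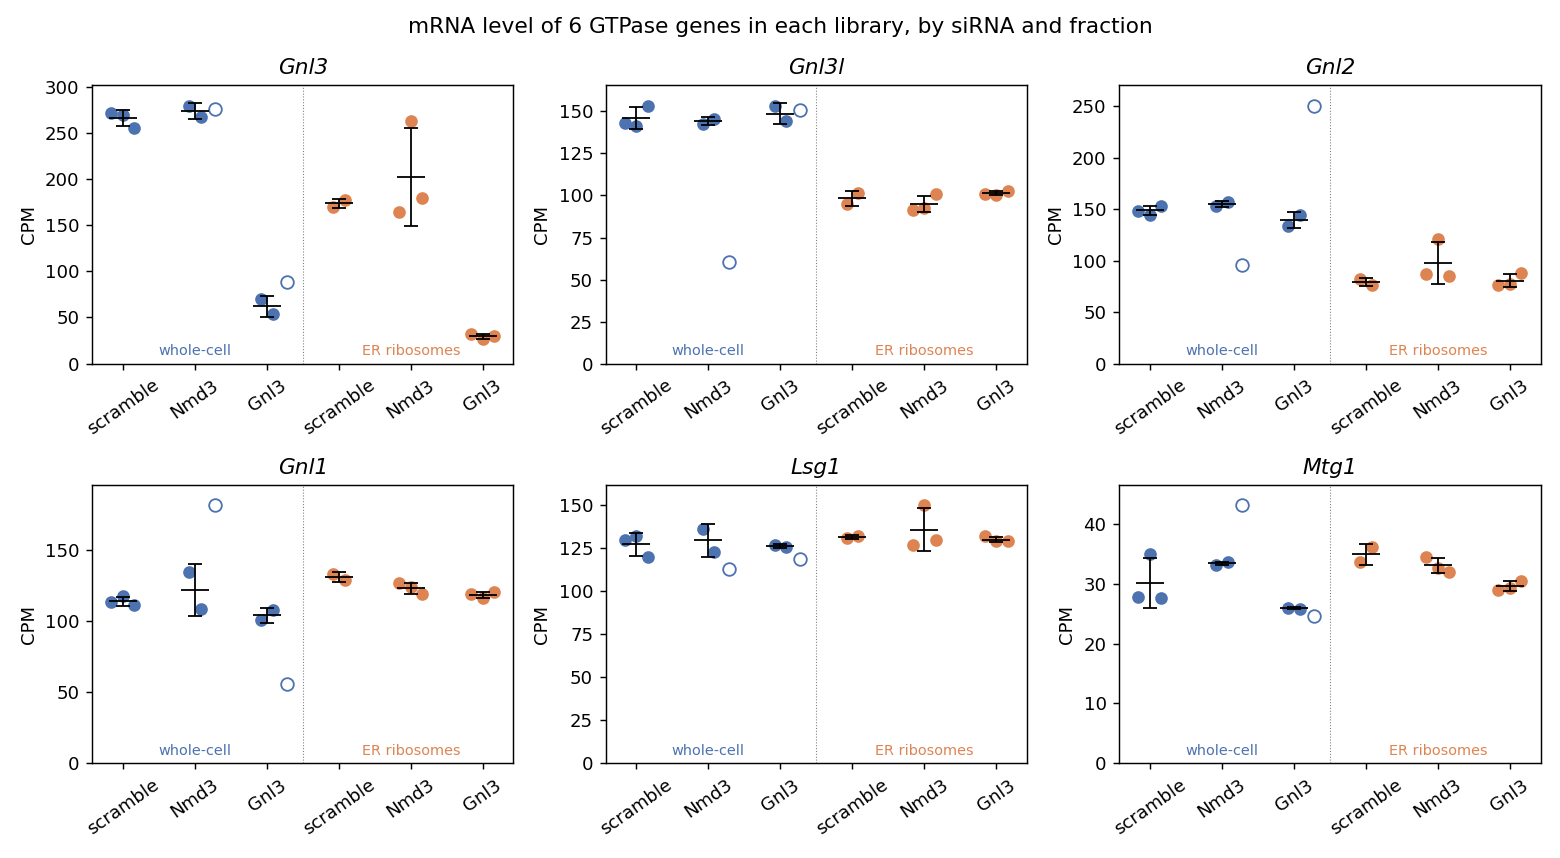
mRNA level of each of the 6 genes in CPM (vertical axis, from 0) in every library, by siRNA; blue points are whole-cell and orange points ER ribosome-bound libraries, open circles are the 2 libraries left out by the submitters, and bars give the mean and SD of the libraries used. Among the libraries used, Gnl3, Gnl3l and Gnl2 sit lower on ER ribosomes under every siRNA, although Gnl3 in 1 Nmd3 siRNA library, at 262.9 CPM, comes close to the whole-cell values, and after Gnl3 siRNA Gnl3 lies far below its scramble level.

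The first comparison asks which of these mRNAs were under- or over-represented on ER ribosomes relative to the lysate they came from. After scramble siRNA 3 of the 6 members were lower on ER ribosomes and 1 was higher, by the edgeR quasi-likelihood test with Benjamini-Hochberg adjustment over 18271 genes (called at an adjusted p under 0.05, as throughout). In the same comparison 50.3% of all genes were called, 25.3% as lower, so 4 calls among 6 genes are near the rate of the whole transcriptome. The median log2 change of the 6 was -0.28, against 0.02 over all genes, of which the middle 80% ran from -0.9 to 0.76.

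The nucleolar members came lowest. Gnl3 was at 272.0, 270.1 and 256.0 CPM in the 3 scramble whole-cell libraries and at 170.0 and 177.4 CPM in the 2 scramble ER ribosome-bound libraries. Every ER value lay below every whole-cell value, and the log2 change was -0.64 (SE 0.19, adjusted p = 0.0166). That call was lost with either scramble ER library left out, with adjusted p-values of 0.0912 without replicate 2 and 0.0743 without replicate 3. The spread is shared over all groups of the fit, so it includes Nmd3 ER replicate 2, at 262.9 CPM of Gnl3. With the 2 left-out libraries in the fit, Gnl3 (adjusted p = 0.0973), Gnl3l (0.0504) and Gnl1 (0.748) were not called, and Gnl2 was.

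Gnl2 had the largest change of the 6 in this comparison. It measured 148.5, 144.8 and 153.4 CPM in the lysates and 82.0 and 76.6 CPM on purified ribosomes. The groups were far apart, with a log2 change of -0.93 (SE 0.14, adjusted p = 0.000271), which is 0.523 of the whole-cell level and just past the lower end of that middle range. Gnl3l measured 143.1, 141.5 and 153.5 CPM in the lysates and 95.2 and 101.6 CPM on purified ribosomes. These groups did not overlap either, and Gnl3l fell by 0.59 on the log2 scale (SE 0.06, adjusted p = 1.79e-10).

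The remaining members were near or slightly above their whole-cell level. Gnl1 measured 113.5, 117.7 and 111.5 CPM in the lysates and 133.7 and 128.9 CPM on purified ribosomes, or 0.18 on the log2 scale (SE 0.06, adjusted p = 0.0191). This small rise was not called by DESeq2 (adjusted p = 0.0626) or, with edgeR, without whole-cell replicate 1 (0.0519) or 3 (0.103) or without ER ribosome-bound replicate 2 (0.214) or 3 (0.0723). Gnl1 shares 386 exon bases, 12.5% of its exon sequence, with Prr3 on the opposite strand, and the strand setting of the counting is not given in the sources used here. Prr3 was at 38.3 ± 4.64 CPM (SD, n = 3) in scramble whole-cell RNA and 41.2 ± 2.58 (SD, n = 2) on ER ribosomes, and its part in the Gnl1 value was not tested. The opposite-strand overlaps of Gnl3 with Pbrm1, Gnl2 with Dnali1 and Mtg1 with Sprn cover 0.246%, 1.17% and 3.97% of exon bases.

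Lsg1, the cytoplasmic member, measured 129.9, 132.1 and 119.8 CPM in the lysates and 131.0 and 132.3 CPM on purified ribosomes. Its ER values lay within the upper part of the whole-cell range or just above it, with a log2 change of 0.02 and a 95% interval from -0.11 to 0.16. Mtg1, the mitochondrial member, measured 27.8, 34.9 and 27.7 CPM in the lysates and 33.7 and 36.2 CPM on purified ribosomes, so the groups overlapped. Its log2 change of 0.19 was not called (SE 0.09, adjusted p = 0.075), but it was without whole-cell replicate 2, the 34.9 CPM library, at 0.31 (adjusted p = 0.00396). Scaling by library totals alone also gave a call, at 0.22 (adjusted p = 0.0429).

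**Figure D2:**
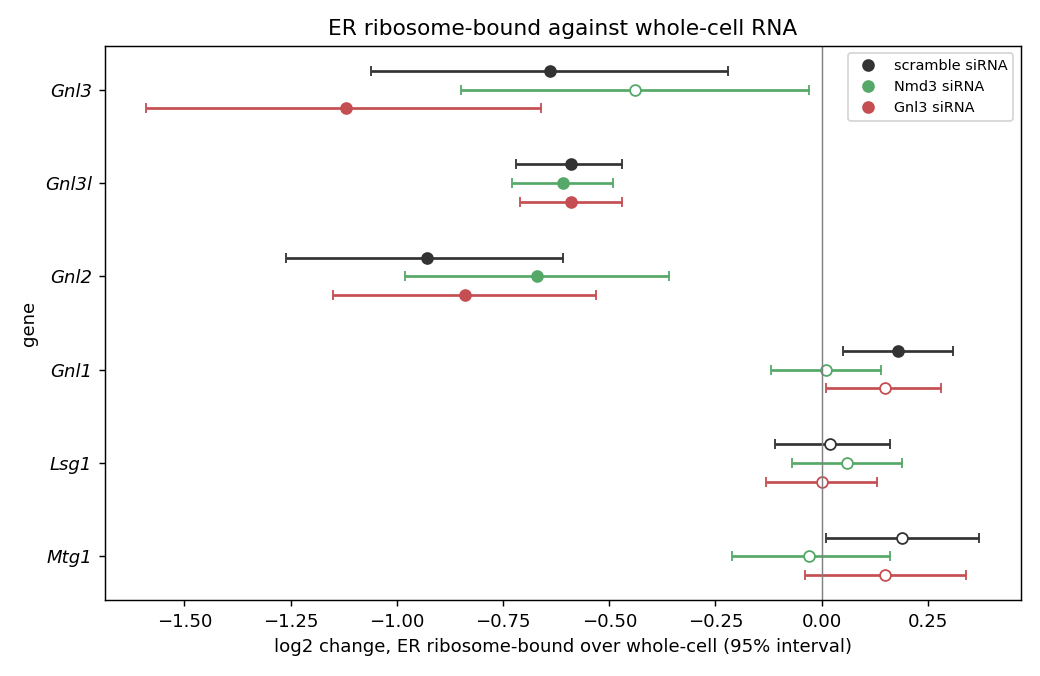
Log2 change of ER ribosome-bound over whole-cell RNA (horizontal axis) for the 6 genes under scramble, Nmd3 and Gnl3 siRNA, from the edgeR fit of 15 libraries; points are estimates, bars 95% intervals, and filled points were called at an adjusted p under 0.05. Gnl2 and Gnl3l lie left of 0 under all 3 siRNAs, at -0.93 to -0.67 and -0.61 to -0.59, while Lsg1 stays between 0 and 0.06.

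The same contrast within the siRNA-treated cells gave similar values for most members. Of the 6 genes, 2 were called after Nmd3 siRNA, both lower (50.1% of all genes were called), and 3 after Gnl3 siRNA, all lower (48.1% of all genes). These comparisons use their own libraries but share 1 estimate of the spread. Gnl3l measured 142.5 and 145.8 CPM in the lysates and 91.6, 92.5 and 100.7 CPM on purified ribosomes after Nmd3 siRNA, or -0.61 on the log2 scale (SE 0.06, adjusted p = 5.19e-11). After Gnl3 siRNA the values were 153.0 and 144.2 CPM against 100.8, 100.4 and 102.8 CPM, or -0.59 on the log2 scale (SE 0.06, adjusted p = 1.01e-10). Gnl3l therefore held about the same ratio in all 3 conditions, and in the 6 cultures with both fractions it ran from 0.642 to 0.696.

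Gnl2 measured 153.4 and 156.9 CPM in the lysates and 87.0, 121.2 and 84.8 CPM on purified ribosomes after Nmd3 siRNA, or -0.67 on the log2 scale (SE 0.14, adjusted p = 0.00197). After Gnl3 siRNA the values were 134.2 and 144.8 CPM against 76.4, 77.2 and 88.0 CPM, or -0.84 on the log2 scale (SE 0.14, adjusted p = 0.000481). The ER values lay below the whole-cell values in both conditions, and the highest of them, 121.2 CPM, came from Nmd3 replicate 2.

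For Gnl3 itself, Nmd3 ER replicate 2 decided the call. After Nmd3 siRNA Gnl3 measured 279.9 and 267.7 CPM in the lysates and 164.2, 262.9 and 179.8 CPM on purified ribosomes. With all 3 ER libraries the log2 change was -0.44 and was not called (SE 0.18, adjusted p = 0.0708). Without replicate 2 it was -0.69 (SE 0.08, adjusted p = 2.32e-08). Taking the lysate as a block gave -0.69 (SE 0.06, adjusted p = 1.73e-10). That fit uses only the cultures with both fractions and so drops the same replicate 2, which makes it no separate check.

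Nmd3 ER replicate 2 had the highest level of all 8 ER libraries for 3 of the 6 members, Gnl3, Gnl2 and Lsg1, the last at 150.0 CPM. Over all genes tested it was the highest in 14.5%, and in the list of 36 nucleolar and nuclear 60S assembly factors in 17 (47.2%). It was also the highest for 5 of 8 mRNAs of ER-made proteins and for 1 of the 5 tested RNAs, mitochondrially encoded or nuclear-retained, that are not on cytosolic ribosomes. The part of these differences in the Gnl3 value was not tested.

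After Gnl3 siRNA the Gnl3 mRNA that remained measured 70.2 and 54.2 CPM in the lysates and 31.6, 26.9 and 29.7 CPM on purified ribosomes. The groups did not overlap, and the log2 change of -1.12 (SE 0.21, adjusted p = 0.00121) compares with -0.64 after scramble. Gnl1, Lsg1 and Mtg1 were not called in either condition, with log2 changes of 0.01, 0.06 and -0.03 after Nmd3 siRNA and 0.15, 0 and 0.15 after Gnl3 siRNA. For Gnl1 after Gnl3 siRNA (SE 0.06, adjusted p = 0.0609) library totals alone gave a call (0.19, adjusted p = 0.0181), as did leaving out Nmd3 whole-cell replicate 1 or 3 or Nmd3 ER replicate 2 or 3 (adjusted p 0.0312 to 0.047).

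The second comparison asks what the Gnl3 siRNA did to Gnl3 and to its relatives. Gnl3 fell in both fractions, and by edgeR none of the other 5 members was called in either. In this comparison 2.68% of all genes were called on ER ribosomes and 0.812% in whole-cell RNA. Of the other 5, 2 had an unadjusted p under 0.05 by edgeR on ER ribosomes and 1 in whole-cell RNA. Over all genes 14.3% and 8.5% did, and DESeq2 called 0 of the 5. The Nmd3 comparisons further on share these scramble libraries. In bulk RNA, fewer cells holding an mRNA and less mRNA per cell cannot be told apart.

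In whole-cell RNA Gnl3 was at 256.0 to 272.0 CPM in the 3 scramble libraries and at 70.2 and 54.2 CPM in the 2 Gnl3 siRNA libraries, which is 26.4% and 20.4% of the scramble mean. The library that the submitters left out was at 88.2 CPM, or 33.2%. The log2 change was -2.1 (SE 0.08, adjusted p = 5.5e-13). With both left-out libraries added it was -1.84 and no longer called by edgeR (SE 0.25, adjusted p = 0.462).

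On ER ribosomes Gnl3 stood at 170.0 and 177.4 CPM after scramble and at 31.6, 26.9 and 29.7 CPM after Gnl3 siRNA, or 18.2%, 15.5% and 17.1% of the scramble mean. The 3 values lay far below every other ER library. The log2 change was -2.58 (SE 0.24, adjusted p = 0.0092). The spread behind that SE came mostly from 1 library of the Nmd3 siRNA group: without Nmd3 ER replicate 2 the change was the same, -2.58, with an SE of 0.05 and an adjusted p of 2.11e-46. With that library kept, leaving out any 1 scramble or Gnl3 siRNA ER library moved the adjusted p to between 0.0517 (without Gnl3 replicate 2) and 0.101 (without scramble replicate 2), at a log2 change of -2.63 to -2.51.

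After the knockdown Gnl3 was no longer the leading member. Per kb of mRNA it was at 32.0 ± 5.8 CPM in whole-cell RNA (SD, n = 2), below Gnl2 and Lsg1. Its 2 values, 36.1 and 27.9, overlapped those of Gnl1 (35.3 and 37.9) and of Gnl3l (31.4 and 29.6). On ER ribosomes it was the lowest of the 6, at 15.1 ± 1.21 CPM per kb (SD, n = 3), below Mtg1 at 18.5 ± 0.515.

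Gnl3l, the closest relative, was not called. Its log2 change after Gnl3 siRNA was 0.03 in whole-cell RNA and 0.03 on ER ribosomes, each with a 95% interval from -0.09 to 0.15, so a rise of more than 0.15 on the log2 scale lies outside the interval. Gnl2 differed by -0.09 in whole-cell RNA, with an interval from -0.21 to 0.03, and by 0.01 on ER ribosomes, where the interval of -0.48 to 0.5 was wide. The spread of that ER fit includes Nmd3 ER replicate 2, at 121.2 CPM of Gnl2. Lsg1 differed by -0.01 and -0.03, with intervals that stayed between -0.16 and 0.12.

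Gnl1 and Mtg1 were lower by small amounts that missed the threshold. Gnl1 was at 100.7 and 107.9 CPM in Gnl3 siRNA lysates and 119.2, 116.6 and 120.7 CPM on purified ribosomes, below every scramble value of the same fraction. The log2 change of Gnl1 was -0.13 in whole-cell RNA (SE 0.07, adjusted p = 0.681) and -0.16 on ER ribosomes (SE 0.05, adjusted p = 0.134). Mtg1 measured 26.0 and 25.8 CPM in the lysates and 28.9, 29.3 and 30.5 CPM on purified ribosomes, also below every scramble value of the same fraction. The share of all genes separated in this way was not counted, and groups this small separate easily. Its log2 change was -0.21 in whole-cell RNA (SE 0.1, adjusted p = 0.561) and -0.25 on ER ribosomes (SE 0.08, adjusted p = 0.0915). Without Nmd3 ER replicate 2, both were called on ER ribosomes, Gnl1 at -0.15 (adjusted p = 0.0281) and Mtg1 at -0.25 (adjusted p = 0.0322), and the number of genes called rose from 472 to 1173.

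**Figure D3:**
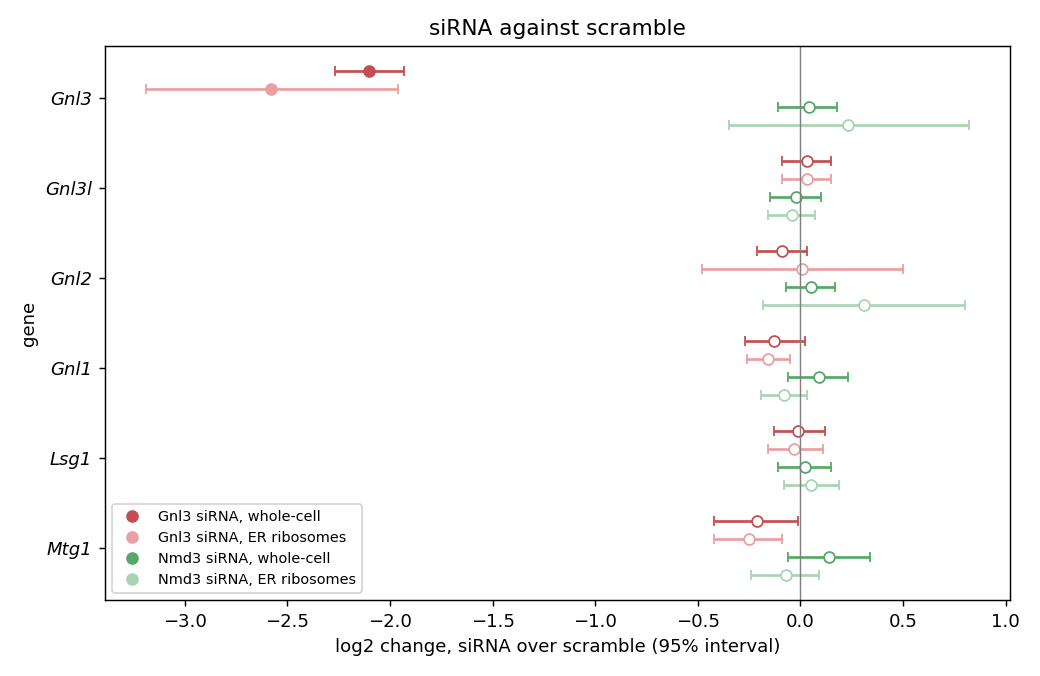
Log2 change of each siRNA over scramble (horizontal axis) for the 6 genes, in whole-cell RNA (dark) and on ER ribosomes (light), for Gnl3 siRNA (red) and Nmd3 siRNA (green); points are edgeR estimates, bars 95% intervals, and filled points were called at an adjusted p under 0.05. Gnl3 after its own siRNA lies at -2.1 and -2.58, and the other estimates lie between -0.25 and 0.31.

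Nmd3 siRNA, which lowered the mRNA of the export adaptor that Gnl2 precedes and Lsg1 releases, left all 6 members without a call in either fraction. The siRNA acted on its target: lysates went from 150.2 to 153.8 CPM of Nmd3 with scramble to 43.7 and 43.2 CPM with Nmd3 siRNA, and purified ribosomes from 123.7 and 120.0 CPM to 25.2, 24.1 and 25.2 CPM. These are log2 changes of -1.81 (SE 0.07, adjusted p = 7.97e-19) and -2.29 (SE 0.06, adjusted p = 2.44e-20). The whole-cell library that the submitters left out held 72.3 CPM of Nmd3, or 47.5% of the scramble mean, and with both left-out libraries added the whole-cell change was -1.29 and not called (SE 0.39, adjusted p = 0.852). The edgeR test called 0 of 6 members in both fractions, 0 of 6 reached an unadjusted p under 0.05, and DESeq2 called 0 as well. Over all genes 0.166% were called in whole-cell RNA and 1.17% on ER ribosomes. At an unadjusted p under 0.05 by edgeR, the shares were 9.69% and 11.6%.

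Lsg1, the releaser of Nmd3, had a log2 difference of 0.02 in whole-cell RNA after Nmd3 siRNA (95% interval -0.11 to 0.15) and 0.05 on ER ribosomes (-0.08 to 0.19). The differences were 0.05 for Gnl2 (-0.07 to 0.17) and 0.31 (-0.18 to 0.8), the latter with replicate 2 at 121.2 CPM and replicates 1 and 3 at 87.0 and 84.8 CPM. Those of Gnl3 were 0.04 (-0.11 to 0.18) and 0.23 (-0.35 to 0.82), and those of Gnl3l -0.02 (-0.15 to 0.1) and -0.04 (-0.16 to 0.07). Without Nmd3 ER replicate 2 the ER difference of Gnl2 was 0.11 and that of Gnl3 was -0.02, neither called. Gnl1 was at 134.8 and 109.0 CPM in Nmd3 siRNA whole-cell RNA, on either side of the scramble range, and was called higher (0.22, adjusted p = 0.0452) only without replicate 3, that is with replicate 1 alone. Conversely, with Gnl3 siRNA, Nmd3 measured 151.5 and 142.2 CPM in the lysates and 124.5, 119.7 and 119.7 CPM on purified ribosomes, with log2 changes of -0.05 and -0.02 that were not called.

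The interaction asks whether an siRNA changed a gene by a different amount on ER ribosomes than in whole-cell RNA. For Gnl3 after its own siRNA the 2 falls differed by -0.48 on the log2 scale, with a 95% interval from -1.11 to 0.14 (SE 0.28, unadjusted p = 0.113 by edgeR, adjusted p = 0.999). Nmd3 after its own siRNA gave nearly the same size, -0.47 (SE 0.09, adjusted p = 0.0765). It was called with DESeq2 (adjusted p = 0.0331), with library totals alone (0.0474) and without a filter on low counts (0.0263). Without Nmd3 whole-cell replicate 3, which leaves replicate 1 alone in its group, the Nmd3 value was -0.45. Across the other 5 members the interaction with Gnl3 siRNA ran from -0.04 to 0.1. The interaction with Nmd3 siRNA ran from -0.22 in Mtg1 to 0.26 in Gnl2. Without Nmd3 ER replicate 2 the Nmd3 siRNA interaction of Gnl2 was 0.06 and that of Gnl3 went from 0.2 to -0.05. The edgeR test called 0 of 18271 genes (0%) in either interaction, with 649 genes at an unadjusted p under 0.05 for Gnl3 siRNA and 1078 for Nmd3 siRNA, while DESeq2 called 0 and 2.

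The other genes of the pathways were described by 5 lists, which were chosen with earlier results of these data known. Of 36 nucleolar and nuclear 60S assembly factors, after scramble siRNA 6 were higher and 16 lower on ER ribosomes than in whole-cell RNA. These are 16.7% and 44.4%, against 25.1% and 25.3% of all genes, and the list's median log2 change was -0.11. With the 2 left-out libraries in the fit 0 of the list were higher and 5 lower, and 2353 of all genes were called (from 9197). Mdn1, the AAA-ATPase that strips factors from the precursor, had the largest change at -2.98 (SE 0.19, adjusted p = 3.16e-07). Mrto4, a relative of the stalk protein Rplp0, was higher by 0.81 (SE 0.06, adjusted p = 1.38e-14) and the helicase Ddx24 changed by -0.67 (adjusted p = 0.00774). Gnl2 at -0.93 thus lay below Ddx24 and above Mdn1.

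The 18 other ribosome and translation GTPases also leaned lower on ER ribosomes, with 1 higher, 11 lower and a median of -0.27. Bms1, a GTPase of small subunit assembly, changed by -1.72 (SE 0.29, adjusted p = 0.000679), Eif5b, which joins the subunits, by -1.5 (SE 0.34, adjusted p = 0.00444) and Eif2s3x, a subunit of eIF2, by -1.15 (SE 0.06, adjusted p = 8.79e-18). Of 15 factors of export and cytoplasmic maturation, where Lsg1 acts, 5 were higher and 6 lower, with a median of 0.07. Xpo1, the export receptor that Nmd3 recruits, changed by -0.58 (SE 0.05, adjusted p = 5.15e-13) and Eif6, the subunit anti-association factor, by 0.44 (SE 0.06, adjusted p = 6.14e-08). Of 21 mitochondrial ribosome assembly genes, the field of Mtg1, 6 were higher and 2 lower, with a median of 0.07. Mpv17l2, which encodes an inner mitochondrial membrane protein, was higher by 1.24 (SE 0.09, adjusted p = 3e-14). Over all genes 25.1% were called higher and 25.3% lower, with a median of 0.02. With the 2 left-out libraries in the fit, the GTPase list had 0 higher and 5 lower and the export list 0 higher and 2 lower. The mitochondrial list then had 1 higher and 0 lower.

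After Gnl3 siRNA few genes of these assembly lists were called, as few were over all genes (0.812% in whole-cell RNA and 2.68% on ER ribosomes). In the nucleolar list 1 of 36 genes was called in each fraction, Nop16 both times, higher by 0.43 in whole-cell RNA (SE 0.07, adjusted p = 0.000961) and 0.35 on ER ribosomes (SE 0.05, adjusted p = 0.000249). Nop16, a nucleolar protein of 60S assembly, was also the only gene of that list called after Nmd3 siRNA, at 0.37 in whole-cell RNA (SE 0.07, adjusted p = 0.0117) and 0.38 on ER ribosomes (SE 0.05, adjusted p = 0.000287). The comparisons with each siRNA use the same scramble libraries. Leaving out 1 library at a time, the Nop16 call after Gnl3 siRNA was lost in 1 of 7 whole-cell and 0 of 8 ER fits. After Nmd3 siRNA it was lost in 2 of 7 whole-cell and 1 of 8 ER fits. With the left-out libraries added, 0 genes of the list were called higher in whole-cell RNA after either siRNA. The list medians after Gnl3 siRNA were -0.02 in whole-cell RNA and -0.04 on ER ribosomes, against 0 over all genes. By edgeR and by DESeq2 none of the 15 export, 21 mitochondrial and 18 GTPase genes was called after Gnl3 siRNA. By edgeR 2, 4 and 0 had an unadjusted p under 0.05 on ER ribosomes, and 1, 0 and 0 in whole-cell RNA. Over all genes 14.3% had such a p on ER ribosomes and 8.5% in whole-cell RNA. Nmd3 was the only gene called among these 3 lists after Nmd3 siRNA. Without Nmd3 ER replicate 2 further genes of them were called on ER ribosomes, named here after their values were seen. These were Rbfa, a mitochondrial ribosome-binding factor, at -0.22 (adjusted p = 0.0279) and Eif5b at 0.25 (adjusted p = 0.0476) after Gnl3 siRNA, and the elongation factor Eef2 at -0.18 (adjusted p = 0.00102) after Nmd3 siRNA.

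The last list holds 18 genes of the p53 axis together with partners of nucleostemin, such as Mdm2, Terf1 and the ribosomal proteins Rpl5, Rpl11 and Rpl23, and 6 of them were called higher and 0 lower after Gnl3 siRNA in each fraction. Of all genes, 1.51% were called higher on ER ribosomes and 0.515% in whole-cell RNA. Since this list was chosen with earlier results of these data known, its share beside that of all genes is a description without a test. Perp, a p53-induced membrane protein, rose by 0.64 in whole-cell RNA (SE 0.07, adjusted p = 5.34e-06) and 0.75 on ER ribosomes (SE 0.06, adjusted p = 4.97e-09). Trp53inp1 rose by 0.53 and 0.46, and Phlda3, an inhibitor of Akt signalling, by 0.57 and 0.42. The median of the list was 0.21 in whole-cell RNA and 0.16 on ER ribosomes. Without Nmd3 ER replicate 2 the ER count was 9 higher and 1 lower (Rpl23 at -0.14, adjusted p = 0.00449), and with the left-out libraries added the whole-cell count was 0. After Nmd3 siRNA 0 of the 18 were called in whole-cell RNA by edgeR or DESeq2. By edgeR 4 had an unadjusted p under 0.05 there, as did 9.69% of all genes. On ER ribosomes 1 was called, Perp at 0.3 (SE 0.06, adjusted p = 0.00506). That call was lost in 2 of the 8 fits that each left out 1 library. Whether the lists differed between the siRNAs was not tested.

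**Figure D4:**
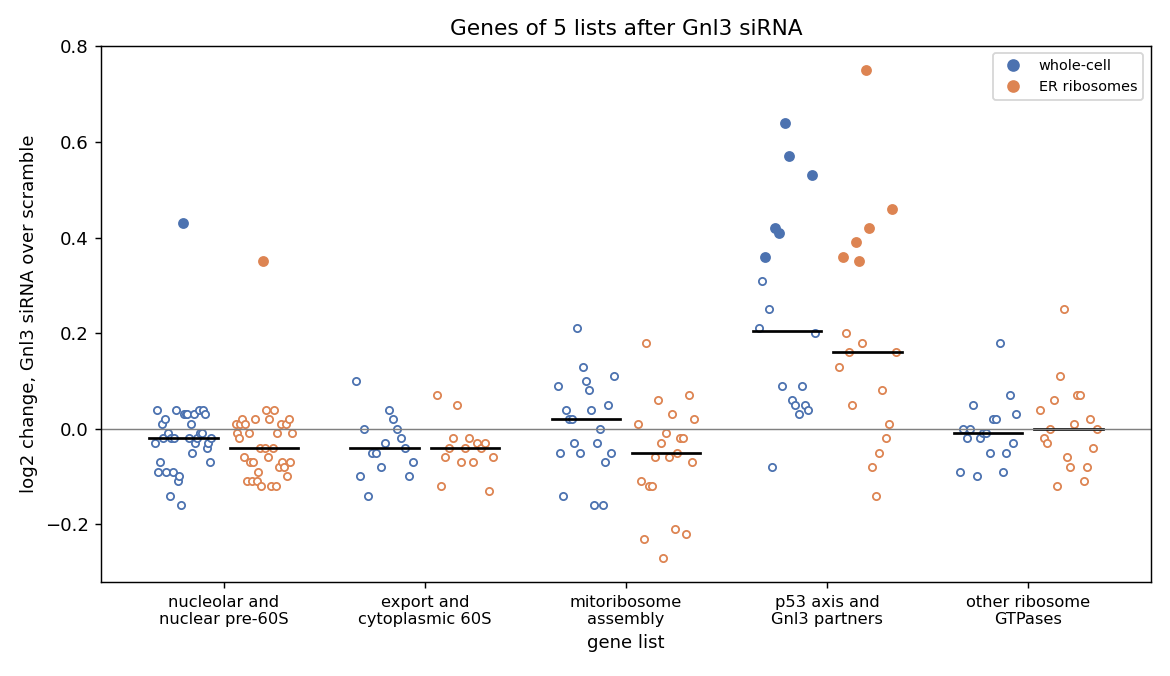
Log2 change of Gnl3 siRNA over scramble (vertical axis) for each gene of 5 lists (horizontal axis), in whole-cell RNA (blue) and on ER ribosomes (orange); filled points were called at an adjusted p under 0.05 and black lines are list medians. In the list of p53 axis genes and Gnl3 partners 6 genes are called higher in each fraction, and in the nucleolar list the single filled point in each fraction is Nop16 at 0.43 and 0.35.

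Genes with a pattern like that of each member were sought among 9785 genes with a mean of at least 10 CPM, by the root mean square difference of centred log2 levels over the 15 libraries. No gene came close to Gnl3: the nearest were Armcx2 at 0.94, Zdhhc21 at 0.97 and Slain1 at 0.99, against a spread of Gnl3 around its own mean of 1.25. These 3 genes were picked for tracking Gnl3 over these same libraries, so their levels are a description without a test. Armcx2 averaged 50.0 CPM in whole-cell RNA after scramble and 32.8 CPM after Gnl3 siRNA, and 31.7 and 22.3 CPM on ER ribosomes. For Zdhhc21 the whole-cell means were 31.9 and 22.6 CPM. Slain1 averaged 16.4 and 14.1 CPM in whole-cell RNA and 11.2 and 7.66 CPM on ER ribosomes. All 3 thus stood lower after Gnl3 siRNA in the mean of either fraction, by far less than Gnl3 itself.

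The other members had near neighbours. Kdm2a lay 0.04 from Gnl3l, whose own spread was 0.3, and had 131.0 CPM in scramble whole-cell RNA against 86.2 on ER ribosomes. Immt lay 0.05 from Gnl2, whose own spread was 0.44, with 126.0 CPM against 65.6. For Gnl1 the nearest was Snap47 at 0.05, for Lsg1 Eif2ak1 at 0.04 and for Mtg1 Frat2 at 0.09. Their own spreads were 0.1, 0.07 and 0.15, so these 3 members hardly varied and closeness says little for them.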

How the data were processed

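PolyA RNA was sequenced after directional library preparation, per the labels' protocols. The deposited values are raw read counts per gene, 1 library per file, which the authors made with STAR 2.7.9a, HTSeq 0.11.2 and the build GRCm39, per the submitters' processing notes, which also name DESeq2. The annotation release and strand setting are not given in the sources used here. The 5 HTSeq lines that name no gene were left out; of the entries per library, 46.6% to 48.3% lay outside any feature, 5.1% to 10.2% were non-unique and 0.36% to 0.57% ambiguous. GENCODE M21 (GRCm38) named 52083 of 55416 gene IDs. No coordinates are given, since the builds differ.

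Levels are CPM of gene counts; levels per kb use the mRNA length of 1 principal transcript per gene. Comparisons used edgeR 4.0.16 in R 4.3.3 (filterByExpr, TMM, robust quasi-likelihood fit without a replicate block), with Benjamini-Hochberg adjustment over all genes tested. ER against whole-cell RNA and the interactions came from 1 fit of 15 libraries, and siRNA against scramble from fits of the 8 ER ribosome-bound or 7 whole-cell libraries. SEs are the absolute log2 change over the square root of F. The procedure was also run on simulated counts with the same spread for every gene and no outlying library. That run therefore does not cover a spread that differs between genes or comes from a single library. Alternatives were DESeq2 1.42.0, other scalings, no filter, a replicate block, all 17 libraries, 1 fit of all 15 and leaving out each library. List counts were also recomputed without Nmd3 ER replicate 2 and with the left-out libraries, choices made after seeing the data.

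Both fractions of a culture come from the same lysate, per the series' design, so they are paired by design; across genes their deviations from group means correlated at -0.03 to 0.02. Across siRNAs the labels give only replicate numbers, and libraries of the same number correlated at -0.02 to 0.04. The paired fractions gave values as low, so this measure cannot tell whether cultures were paired across siRNAs. Members and lists were chosen with earlier results of these data known. Named were the 6 members, Nmd3, opposite-strand neighbours, the 3 genes nearest to Gnl3 and 1 for each other member, and of each list up to 3 called genes with the largest change, or the 1 with the smallest p where none was called. Nop16 and Perp fall under that rule. Not every gene it allows is named. No 2 libraries held identical counts.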

Additional observations from a re-analysis of the deposited data

Results flagged for a closer look

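The 2 whole-cell libraries that the submitters left out went beyond every other whole-cell library for several of these genes. In Gnl3 siRNA replicate 3, Gnl2 was at 250.8 CPM, against 134.2 to 156.9 CPM in the 7 whole-cell libraries used, and Nmd3 was at 273.7 CPM, against at most 153.8 CPM in them. In Nmd3 siRNA replicate 2, Gnl1 was at 181.8 CPM, against 100.7 to 134.8 CPM, and Mtg1 at 43.1 CPM, against 25.8 to 34.9 CPM. The same libraries were also low for other members, with Gnl3l at 60.3 CPM and Gnl2 at 96.0 CPM in Nmd3 siRNA replicate 2 and Gnl1 at 56.1 CPM in Gnl3 siRNA replicate 3. Gnl3 in Nmd3 siRNA replicate 2, at 275.8 CPM, lay within the range of the libraries used.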

How the results depend on the processing

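Groups of 2 or 3 libraries limit every test, and p-values rest on the spread shared over groups; a library left alone in its group is assumed to vary like the others. For the 6 members, no alternative reversed a called direction. RLE factors, no filter and the single fit of 15 libraries changed none of their calls, DESeq2 changed 1 of 54, library totals 2, the replicate block 2, and leaving out 1 library 20 of 630. Adding the 2 left-out libraries removed calls in 6 of 42 member results: in scramble ER against whole-cell RNA 1 member and 2353 genes were called (from 4 and 9197), after Nmd3 siRNA 0 and 2819 (from 2 and 9152), after Gnl3 siRNA 4540 genes (from 8795). With them Gnl3 siRNA in whole-cell RNA called 0 members and 0 genes (from 1 and 142) and Nmd3 siRNA 0 genes (from 29). In that fit Mrto4 (-0.1), Nxt1 (-0.09), Rbfa (-0.06), Malsu1 (-0.08) and Cdkn2a (-0.02), called higher on ER ribosomes after Nmd3 siRNA without those libraries, had the opposite sign.

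With the replicate number as a block, Gnl3 siRNA on ER ribosomes called 0 members and 258 genes (from 1 and 472). Gnl3 was then at -2.52 (adjusted p = 0.0966 by edgeR), and Nmd3 siRNA on ER ribosomes called 126 genes (from 206). Whether these numbers pair cultures across siRNAs is not given in the sources used here. For the fractions, the lysate block changed no member's call but that of Gnl3 after Nmd3 siRNA, where it drops Nmd3 ER replicate 2. With the lysate block the Nmd3 interaction called 1 gene (from 0). Without a filter on low counts, Nmd3 siRNA called 407 genes on ER ribosomes and 115 in whole-cell RNA, and the interactions 1 (Gnl3) and 14 (Nmd3). The Nmd3 interaction gave 1 gene with library totals and 2 with DESeq2. The cause of these shifts was not tested.

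Leaving out each library in turn, Gnl3 siRNA on ER ribosomes called 0 to 3 members and 70 (without scramble replicate 2) to 1173 genes (without Nmd3 replicate 2), and in whole-cell RNA 17 to 292 genes. Nmd3 siRNA called 23 to 366 genes on ER ribosomes, and in whole-cell RNA 0 to 1 members and 8 (without Nmd3 replicate 1) to 1024 genes (without replicate 3). The Nmd3 interaction called 0 to 304 genes, the latter again without Nmd3 whole-cell replicate 3. In scramble ER against whole-cell RNA 2 to 5 members were called.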
